A study of Mus musculus with 6 samples.

Results

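The collagen genes were taken as every row of the count table whose symbol reads Col, a number, a and a number, which gave 36 of 18260 genes. They were described across 6 libraries of primary hepatocytes isolated from liver tumours of male mice. The 3 ΔHep libraries came from Ripply1 ΔHep mice, in which floxed Ripply1 (exons 1 to 3 between loxP sites) was combined with Alb-Cre, the recombinase under the albumin promoter, which acts mainly in hepatocytes. The 3 F/F libraries came from Ripply1 F/F mice with the same floxed alleles, for which no Cre is described. All mice had 1 intraperitoneal dose of the carcinogen diethylnitrosamine (DEN, 90 μg per g) at 6 weeks of age, no treatment for 3 weeks, and then a diet with 0.05% phenobarbital (PB) for 27 weeks, with hepatocytes taken 30 weeks after DEN. Ripply1 encodes a co-repressor of T-box factors, and the study asked what its loss does to tumour hepatocytes. Whether the replicates were separate animals is not stated, so the p-values below rest on a spread between libraries that may be technical.

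Collagens are proteins of the extracellular matrix whose chains wind around each other into a stiff helix of repeating glycine-led units. Fibrillar collagens make the ropes of scar tissue, basement membrane collagens make sheets under epithelium and endothelium, and FACIT collagens (fibril-associated collagens with interrupted helices) sit on the surface of fibrils. In liver, stellate cells and fibroblasts are the known source of most fibrillar collagen, while hepatocytes are known to make type XVIII collagen. Among the 36 genes there were 9 fibrillar, 8 basement membrane (type IV with the multiplexins of types XV and XVIII), 6 FACIT and 13 other collagens. The other class held type VI of beaded filaments (5), transmembrane (4) and short-chain collagens (2), and Col7a1 and Col28a1. A further 8 collagen symbols of these classes had no row in the count table.

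Library totals ran from 31484308 to 35894395 counts in ΔHep and from 27772849 to 32199523 in F/F, so 1 CPM (counts scaled to library size) stood for 26.7 to 37.9 counts. Ripply1 itself had 1, 1 and 2 counts in ΔHep replicates 1, 2 and 3, against 13, 8 and 12 in F/F replicates 1, 2 and 3. All 18 hepatocyte markers of a list were detected, with summed levels of 140873 to 166078 CPM in ΔHep and 149663 to 159189 CPM in F/F. Markers of other cell types were present too and are given after the collagens.

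Of the 36 collagen genes, 26 had enough reads to be tested, and 7 of these rose in ΔHep while 0 fell. Among all 14552 genes tested 1.51% rose and 0.165% fell. The 7 were Col1a1, Col1a2, Col5a2, Col4a5, Col6a1, Col6a2 and Col6a3, with fold changes between 2.58 (Col5a2) and 3.93 (Col6a3) and adjusted p between 0.0329 and 0.0465 (edgeR quasi-likelihood test, Benjamini-Hochberg adjusted over all genes). Before adjustment 19 collagen genes were higher with p below 0.05 and 2 lower, against 14.1% and 6.97% of all genes tested. In 18 of the 26 every ΔHep library lay above every F/F library, and in 0 every one lay below, against 15.3% and 11.8% of all genes tested. The median log2 fold change of the 26 was 1.29, and over all genes tested it was -0.01. Of the 26, 21 reached the filter level in all 6 libraries. Col4a3, Col6a5, Col6a6 and Col8a1 reached it in all 3 ΔHep libraries but only 1 or 2 F/F libraries, and Col25a1 in 2 ΔHep libraries and all 3 F/F libraries. With no filter, the median over all 36 was 1.26, with 31 positive and 5 negative values. The calls depended on single libraries: without ΔHep replicate 2, ΔHep replicate 3, F/F replicate 1 or F/F replicate 2 there were 0 (with 1 to 5 genes called in all). Without ΔHep replicate 1 there were 10 higher and 1 lower, against 1.23% and 0.215% of all genes tested. Without F/F replicate 3 there were 14 higher and 1 lower, against 6.79% and 1.49%. DESeq2, a second count model, called 18 of the 32 that it gave an adjusted p higher and 0 lower, against 6.67% and 1.42% of all 16121 such genes. The 18 were 5 fibrillar, 6 basement membrane, 1 FACIT and 6 other collagens. Besides the 7 named above they were Col3a1, Col5a1, Col4a1, Col4a2, Col4a3, Col4a4, Col4a6, Col16a1, Col6a5, Col6a6 and Col28a1. In limma-voom 2 of the 26 were higher and 0 lower, against 0.522% and 0.0825% of all genes tested.

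**Figure D1:**
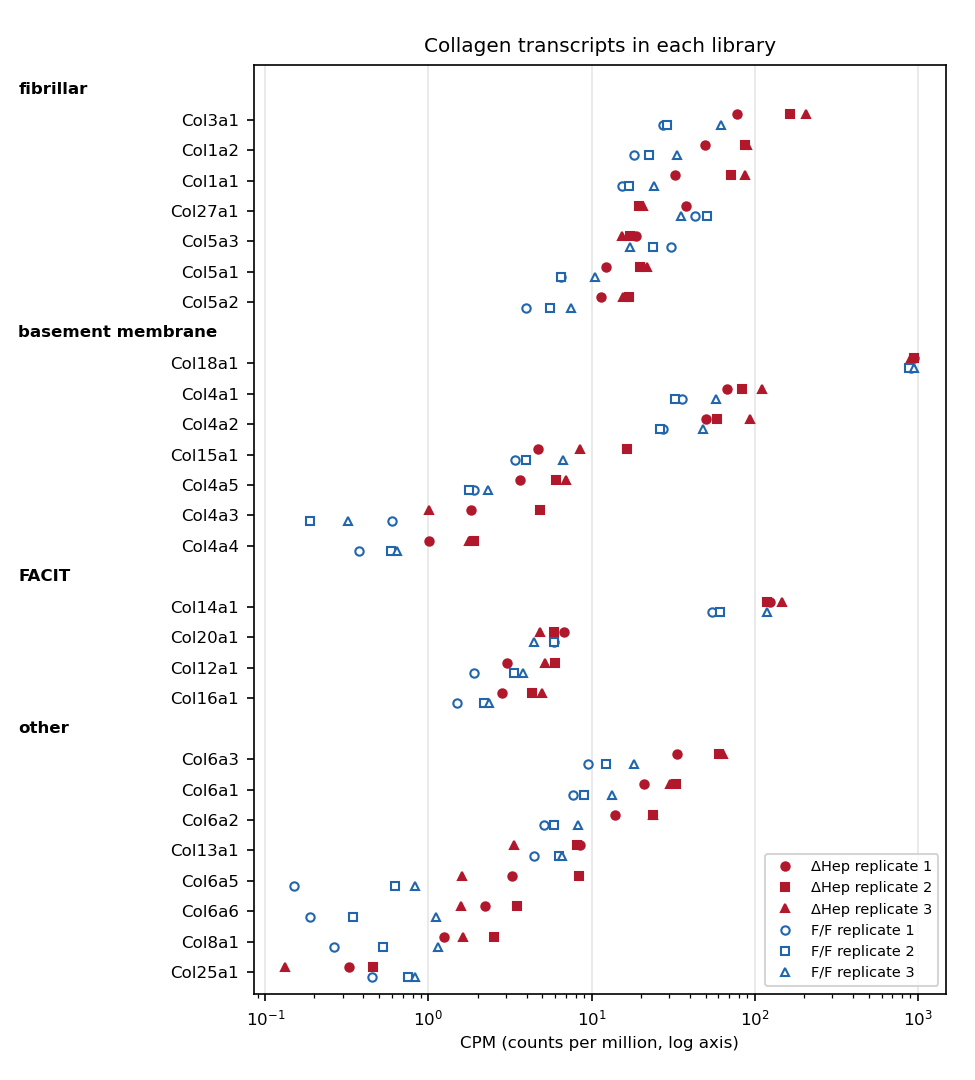
Expression of the 26 tested collagen genes by class, in CPM on a log axis, with a filled point for each ΔHep library and an open point for each F/F library. The ΔHep points of Col6a3 lie between 33.4 and 64.1 CPM, all above the F/F points, while those of Col18a1 overlap the F/F points near the right edge.

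Tested fibrillar collagens split by sign, with 5 positive fold changes, not all past the threshold, and 2 negative ones. Of 9 genes 7 were tested and 3 rose, with a class median log2 fold change of 1.37 and values from -0.73 to 1.91. Col1a1 and Col1a2 encode the chains of type I collagen, the main fibril of scar tissue. Col1a1 measured 32.7, 71.2 and 87.0 CPM in ΔHep replicates 1, 2 and 3, against 15.4, 17.1 and 24.0 CPM in F/F replicates 1, 2 and 3. Col1a2 measured 49.3, 86.8 and 90.2 CPM in ΔHep, against 18.1, 22.4 and 33.3 CPM in F/F. In both genes ΔHep replicate 1 was the lowest of its group and F/F replicate 3 the highest of its own, and the groups did not overlap. The log2 fold change was 1.76 (SE 0.33, adjusted p = 0.0449) for Col1a1 and 1.62 (SE 0.28, adjusted p = 0.0383) for Col1a2. Col5a2, a chain of type V collagen, which nucleates type I fibrils and limits their width, measured 11.4, 17.1 and 15.6 CPM in ΔHep, against 3.97, 5.58 and 7.53 CPM in F/F. Its log2 fold change was 1.37 (SE 0.25, adjusted p = 0.0436), and its groups were separate as well.

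Col3a1, the chain of type III collagen that lies with type I in reticular fibres, had the highest level per length of the fibrillar class. It stood at 78.3, 165 and 205 CPM in ΔHep, against 27.6, 29.1 and 62.6 CPM in F/F, a fold change of 1.91 (log2, SE 0.41, adjusted p = 0.059), which did not pass. The groups did not overlap, but F/F replicate 3 lay well above the rest of its group and closest to ΔHep replicate 1. Without F/F replicate 3 the log2 fold change was 2.39, and Col3a1 then passed. Col5a1, the partner of Col5a2 in type V, averaged 18.0 ± 5.12 CPM in ΔHep and 7.80 ± 2.28 CPM in F/F (SD, n = 3 each), with a log2 fold change of 1.21 (adjusted p = 0.0629).

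The remaining fibrillar chains lay the other way or were scarce. Col27a1, a fibrillar collagen best known from cartilage, had 37.9, 19.5 and 20.7 CPM in ΔHep, against 42.9, 51.4 and 35.2 CPM in F/F. Its groups overlapped through ΔHep replicate 1, with a fold change of -0.73 (log2, SE 0.26, adjusted p = 0.166) and of -1.11, which passed, without that library. Col5a3, the third chain of type V, had 18.6, 17.2 and 15.5 CPM in ΔHep, against 30.9, 23.8 and 17.3 CPM in F/F, a fold change of -0.49 (log2, SE 0.20, adjusted p = 0.216), and of -0.69, which passed, without F/F replicate 3. So the type V chains did not share a sign: Col5a1 and Col5a2 had positive and Col5a3 negative fold changes, and the difference between them was not tested. Below the filter, Col24a1 had 2, 11 and 4 counts in ΔHep and 4, 12 and 6 in F/F, and Col11a2, a cartilage chain, had 10, 2 and 0 counts in ΔHep and 0, 8 and 1 in F/F.

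**Figure D2:**
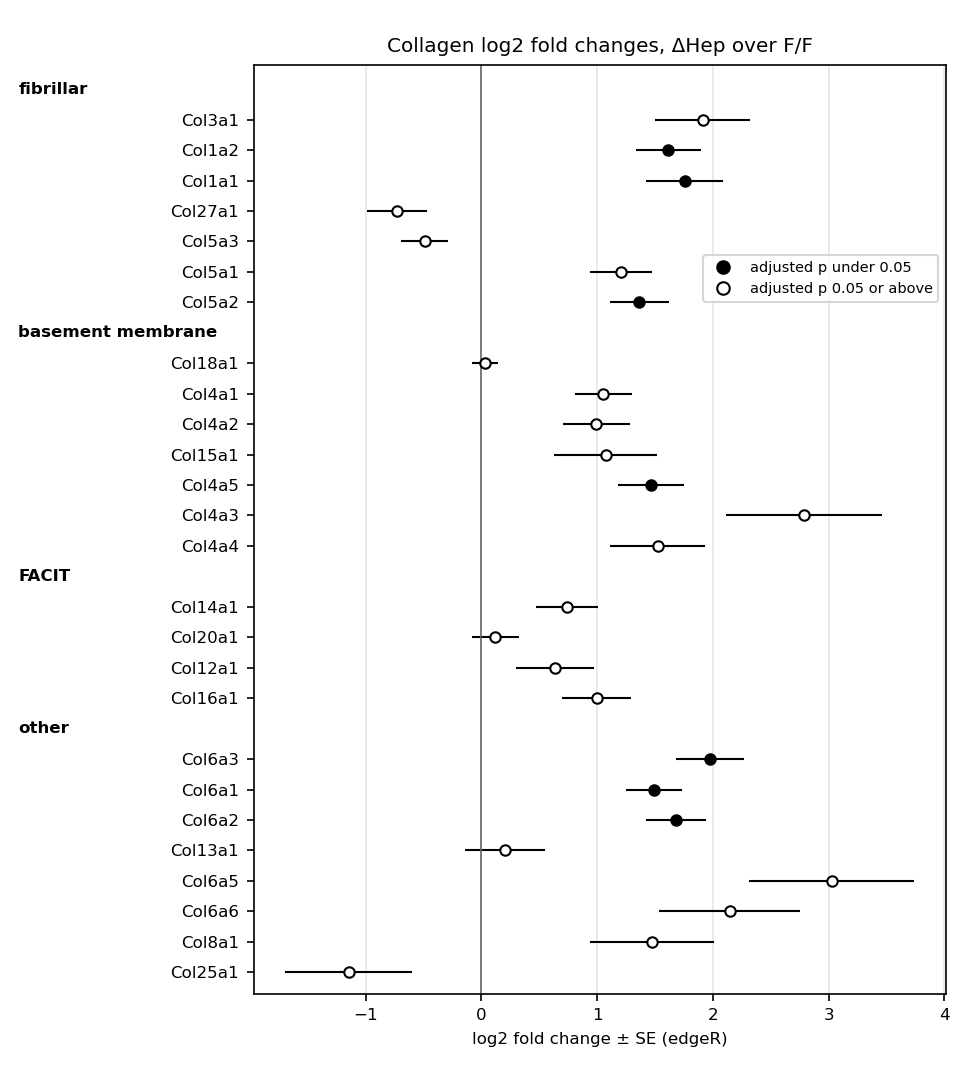
Log2 fold changes of ΔHep over F/F for the 26 tested collagen genes, with the standard error as a bar and filled points for an adjusted p under 0.05. Filled points stand at 1.37 to 1.98 in the fibrillar, basement membrane and other classes, and 3 open points, Col27a1, Col5a3 and Col25a1, lie below 0.

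Basement membrane collagens held the most abundant collagen transcript, whose groups overlapped, and scarcer ones with positive fold changes. Of 8 genes 7 were tested and 1 rose, with a class median of 1.07. Col18a1 encodes type XVIII collagen, the precursor of endostatin. It stood at 952, 947 and 905 CPM in ΔHep, against 912, 885 and 946 CPM in F/F, with overlapping groups and a fold change of 0.03 (log2, SE 0.11, adjusted p = 0.904). Per length it was far above every other collagen, at 167 ± 4.66 CPM per kb of transcript in ΔHep and 163 ± 5.45 in F/F (SD, n = 3 each), and the next in F/F, Col14a1, had 12.1 ± 5.42. Col18a1 took 48.2% to 61.6% of all collagen counts in ΔHep, against 66.0% to 74.8% in F/F.

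Type IV collagen forms the network of every basement membrane, and its genes lie in head-to-head pairs with close start sites. Col4a1 and Col4a2 encode its most widespread chains and start 21 bases apart on chromosome 8. Col4a1 measured 67.7, 83.3 and 111 CPM in ΔHep, against 35.8, 32.6 and 58.0 CPM in F/F, a fold change of 1.05 (log2, SE 0.25, adjusted p = 0.0677). Col4a2 measured 50.2, 58.8 and 93.4 CPM in ΔHep, against 27.3, 26.4 and 48.0 CPM in F/F, with a fold change of 0.99 (log2, SE 0.29, adjusted p = 0.108). Neither gene passed with edgeR, although in both the ΔHep libraries lay above the F/F libraries, ΔHep replicate 3 being the highest of all. DESeq2 called both, with an adjusted p of 0.00117 for Col4a1 and 0.00909 for Col4a2. Col4a5, on the X chromosome, did pass, with 3.64, 6.06 and 6.95 CPM in ΔHep, against 1.91, 1.78 and 2.33 CPM in F/F and a fold change of 1.47 (log2, SE 0.29, adjusted p = 0.0465). Its chain joins those of Col4a3 and Col4a4 in the network known from the filtering membrane of the kidney.

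Col4a3 and Col4a4 start 72 bases apart on chromosome 1 and were both scarce. Col4a3 had 62, 157 and 38 counts in ΔHep, against 16, 6 and 9 in F/F, a fold change of 2.79 (log2, SE 0.67, adjusted p = 0.0708). Col4a4 had 34, 62 and 67 counts in ΔHep, against 10, 19 and 18 in F/F, a fold change of 1.52 (log2, SE 0.41, adjusted p = 0.0917). The counts did not overlap between genotypes in either gene, but the lowest ΔHep library was replicate 3 for Col4a3 and replicate 1 for Col4a4. Col4a6, whose start lies 1309 bases from that of Col4a5, was below the filter, with 10, 32 and 27 counts in ΔHep and 2, 0 and 2 in F/F. In the fit with no filter its log2 fold change was 3.70 (adjusted p = 0.0715). Col15a1, the multiplexin of capillary and muscle basement membranes, had 4.68, 16.4 and 8.48 CPM in ΔHep, against 3.37, 3.96 and 6.70 CPM in F/F, with overlapping groups and a fold change of 1.07 (log2, SE 0.44, adjusted p = 0.215).

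FACIT collagens had the lowest class median, 0.69 over 4 tested of 6 genes, and 0 passed. Before adjustment 2 were higher with p below 0.05, and DESeq2 called 1 of the 4 (Col16a1, adjusted p = 0.0376). Col14a1, a fibril-surface collagen that binds decorin, was the most abundant, at 125, 119 and 148 CPM in ΔHep, against 55.0, 61.5 and 119 CPM in F/F. The groups did not overlap, though ΔHep replicate 2 and F/F replicate 3 were nearly level, and the log2 fold change was 0.74 (SE 0.27, adjusted p = 0.175), or 1.16, which passed, without F/F replicate 3. Col20a1 had 6.81, 5.91 and 4.86 CPM in ΔHep, against 5.85, 5.86 and 4.45 CPM in F/F, with overlapping groups and a fold change of 0.12 (log2, SE 0.20, adjusted p = 0.779). Col16a1 and Col12a1, which also bind to fibrils, had log2 fold changes of 1.00 (adjusted p = 0.116) and 0.64 (adjusted p = 0.314). The cartilage chains Col9a2, with 2, 5 and 3 counts in ΔHep and 1, 0 and 0 in F/F without overlap, and Col9a3, with 4, 3 and 4 in ΔHep and 3, 0 and 6 in F/F, were below the filter. Whether FACIT collagens changed less than the other classes was not tested, and the class ranges of fold changes overlapped.

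Type VI collagen, which forms beaded filaments between cells and fibrils, had all 3 of its main chains among the genes that rose. Col6a3 measured 33.4, 60.1 and 64.1 CPM in ΔHep, against 9.56, 12.2 and 18.3 CPM in F/F, a fold change of 1.98 (log2, SE 0.30, adjusted p = 0.0329). Col6a1 measured 21.1, 33.1 and 30.3 CPM in ΔHep, against 7.65, 8.98 and 13.4 CPM in F/F, a fold change of 1.49 (log2, SE 0.24, adjusted p = 0.0346). Col6a2 measured 14.0, 23.8 and 23.9 CPM in ΔHep, against 5.10, 5.86 and 8.25 CPM in F/F, a fold change of 1.68 (log2, SE 0.26, adjusted p = 0.0329). In each of these genes the lowest ΔHep library was above the highest F/F library, and Col6a1 and Col6a3 were the pair that limma-voom called. The sum over these chains was 101 ± 28.3 CPM in ΔHep and 29.8 ± 9.17 CPM in F/F (SD, n = 3 each).

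Col6a5 and Col6a6 encode chains related to that of Col6a3 that are known to take its place in the trimer. They were scarce, with 110, 274 and 61 counts of Col6a5 in ΔHep against 4, 20 and 23 in F/F, and 75, 114 and 60 counts of Col6a6 in ΔHep against 5, 11 and 31 in F/F. The log2 fold changes, 3.03 (SE 0.71, adjusted p = 0.0674) for Col6a5 and 2.15 (SE 0.61, adjusted p = 0.102) for Col6a6, missed the threshold. Their highest library was ΔHep replicate 2 and their lowest ΔHep library replicate 3, while Col6a3 was highest in ΔHep replicate 3.

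The sequences before the starts of the type VI chain genes and of Col1a2 are shown because these genes rose and 3 of them make 1 collagen. Each line gives the 250 bases before the RefSeq start on the gene's own strand (build GRCm38.p6), with capitals for matches on either strand to CCAAT, to the GC box GGGCGG, to the TATA box TATAAA or to the T-box site AGGTGTGA. The windows lie at chr6:4505368-4505617 (plus strand, Col1a2), chr10:76726045-76726294 (minus, Col6a1), chr10:76623405-76623654 (minus, 1 of the starts of Col6a2) and chr1:90843972-90844221 (minus, Col6a3). In the GENCODE M21 annotation, whose gene spans are given below, the Col1a2 window lies inside the gene. The Col6a1 and Col6a2 windows shown lie partly inside their genes, that of Col6a2 for most of its length. The Col6a3 window lies just before its gene.
Col1a2: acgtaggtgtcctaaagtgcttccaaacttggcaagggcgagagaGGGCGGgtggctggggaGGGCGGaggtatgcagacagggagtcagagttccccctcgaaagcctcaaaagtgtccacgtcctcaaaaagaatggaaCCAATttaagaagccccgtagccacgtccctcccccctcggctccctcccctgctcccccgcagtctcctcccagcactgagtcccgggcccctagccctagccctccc
Col6a1: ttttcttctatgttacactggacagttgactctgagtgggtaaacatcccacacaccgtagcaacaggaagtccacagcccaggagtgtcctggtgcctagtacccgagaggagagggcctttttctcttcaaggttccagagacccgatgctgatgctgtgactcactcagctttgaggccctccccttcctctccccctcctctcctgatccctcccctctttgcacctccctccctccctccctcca
Col6a2: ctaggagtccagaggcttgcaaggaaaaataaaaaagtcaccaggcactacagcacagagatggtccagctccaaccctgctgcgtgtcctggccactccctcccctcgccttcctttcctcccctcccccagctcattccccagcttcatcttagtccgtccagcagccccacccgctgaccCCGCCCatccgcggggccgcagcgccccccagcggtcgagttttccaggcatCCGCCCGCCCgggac
Col6a3: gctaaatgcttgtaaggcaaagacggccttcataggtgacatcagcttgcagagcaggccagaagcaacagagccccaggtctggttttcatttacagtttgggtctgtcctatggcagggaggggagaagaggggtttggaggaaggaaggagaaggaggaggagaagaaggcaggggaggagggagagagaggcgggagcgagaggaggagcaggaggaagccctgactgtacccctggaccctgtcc

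The Col1a2 window held 2 GC boxes, 205 and 188 bases before the start, and CCAAT at 109 bases. The Col6a2 window shown held 3 GC boxes on the opposite strand, of which the pair nearest the start overlap. The window of another Col6a2 start (chr10:76623631-76623880, minus) held 1 GC box on the opposite strand, 175 bases before that start. The windows of Col6a1 and Col6a3 held 0 matches. In the 250 bases before the start, 30 of the 36 genes had a RefSeq window. These 30 genes had 32 windows. CCAAT was found in 10 of the 32 and in 33.8% of all 32817 windows. GGGCGG was found in 20 of the 32 (19 genes) and in 32.7% of all windows. For TATAAA the values were 4 and 12.4%, and for AGGTGTGA 0 and 1.12%. A match is only a run of letters in these windows, not a site shown to be bound.

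The other collagens of this mixed class were scarce, apart from Col13a1. Col13a1 averaged 6.66 ± 2.89 CPM in ΔHep and 5.77 ± 1.14 CPM in F/F (SD, n = 3 each). Col8a1, a short-chain collagen of vessel walls, had 42, 83 and 62 counts in ΔHep, against 7, 17 and 32 in F/F, a fold change of 1.48 (log2, SE 0.54, adjusted p = 0.175). The transmembrane collagens Col13a1 and Col25a1 had log2 fold changes of 0.20 (SE 0.34, adjusted p = 0.78) and -1.15 (SE 0.55, adjusted p = 0.274), with overlapping groups in both. Col28a1, a collagen known from the sheaths of peripheral nerves, was below the filter with 6, 21 and 99 counts in ΔHep, against 2, 1 and 3 in F/F. ΔHep replicate 3 alone held most of its reads, and it was named after its values were seen. Its log2 fold change with no filter was 3.96 (adjusted p = 0.0885), and DESeq2 called it (adjusted p = 0.00352). The remaining genes below the filter, Col7a1, Col8a2, Col17a1 and Col23a1, had at most 16 counts in any library, and the groups overlapped in CPM in each.

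Summed over all 36 genes, collagen transcripts were 1739 ± 173 CPM in ΔHep and 1290 ± 124 CPM in F/F (SD, n = 3 each). Without Col18a1 the sums were 593, 847 and 973 CPM in ΔHep replicates 1, 2 and 3, against 308, 331 and 487 CPM in F/F replicates 1, 2 and 3, so the groups did not overlap. The fibrillar class made up 40.6% to 46.9% of that sum in ΔHep and 39.1% to 47.3% in F/F, and the basement membrane class 20.3% to 23.0% in ΔHep and 19.8% to 23.8% in F/F. The FACIT share was 16.0% to 23.2% in ΔHep and 20.9% to 26.5% in F/F. These 3 shares overlapped between genotypes, whereas the other class, mostly type VI, made up 13.4% to 16.7% in ΔHep and 9.28% to 10.9% in F/F and did not overlap. F/F replicate 3 was the highest of its group for 22 of the 26 tested genes, a position it held for 41.3% of all genes tested. ΔHep replicate 1 was the lowest of its group for 16 of the 26, and for 5041 of all 14552 genes tested.

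**Figure D3:**
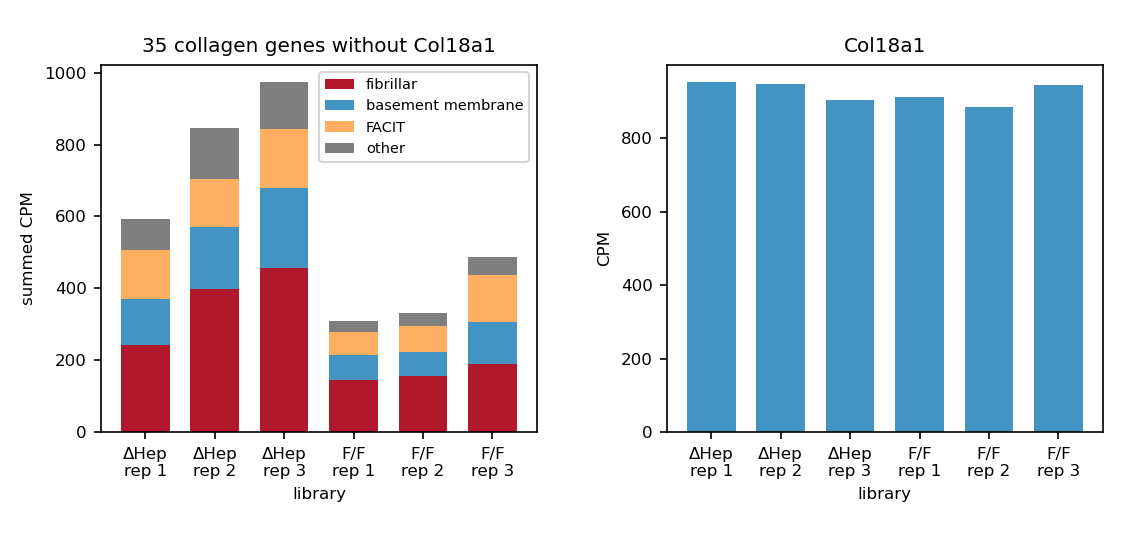
Summed CPM of the 35 collagen genes other than Col18a1, stacked by class for each library (left), and CPM of Col18a1 alone (right). The left sums are 593 to 973 CPM in ΔHep and 308 to 487 CPM in F/F, and Col18a1 stays between 885 and 952 CPM.

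Ratios between chains of the same or a joined fibril were compared within each library, for 6 pairs. The log2 ratio of Col6a1 to Col6a3 counts was -0.66, -0.86 and -1.08 in ΔHep replicates 1, 2 and 3, against -0.32, -0.44 and -0.45 in F/F replicates 1, 2 and 3. It did not overlap between genotypes, with a difference of -0.46 and an exact two-sided permutation p of 0.1, the smallest that 3 against 3 libraries allow (0.6 adjusted over the 6 pairs). The ratios of Col1a1 to Col1a2, Col3a1 to Col1a1, Col5a1 to Col5a2, Col4a1 to Col4a2 and Col6a1 to Col6a2 overlapped, with differences between -0.19 and 0.24. For Col1a1 to Col1a2 the ratio was -0.31 ± 0.27 in ΔHep and -0.37 ± 0.12 in F/F, and for Col4a1 to Col4a2 it was 0.40 ± 0.13 in ΔHep and 0.32 ± 0.06 in F/F (SD, n = 3 each).

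**Figure D4:**
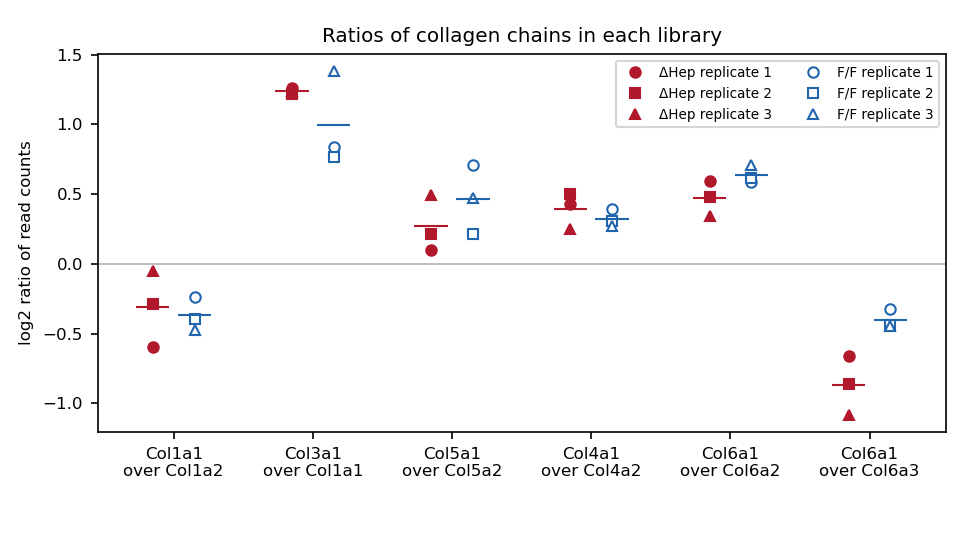
Log2 ratio of the read counts of paired collagen chains in each library, with filled points for ΔHep, open points for F/F and a line at each group's mean. Only the Col6a1 to Col6a3 ratio separates the genotypes, at -0.66 to -1.08 in ΔHep and -0.32 to -0.45 in F/F.

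Genes that fold, secrete, cut and bind collagen were counted from lists of known roles. Of 19 tested genes of collagen synthesis in the endoplasmic reticulum 1 rose and 0 fell, against 1.51% and 0.165% of all genes tested. Before adjustment 6 were higher with p below 0.05 and 1 lower, against 14.1% and 6.97% of all genes tested. DESeq2 called 3 higher and 0 lower, against 6.67% and 1.42% of its genes. The median log2 fold change was 0.17. The gene that rose was Serpinh1, the collagen chaperone HSP47, with 31.6, 31.8 and 42.4 CPM in ΔHep, against 16.98, 18.7 and 16.2 CPM in F/F, and a fold change of 1.03 (log2, SE 0.15, adjusted p = 0.0329). P4hb, a subunit of prolyl hydroxylase and a general disulfide isomerase, held most counts of the list and was named after its values were seen, at 1297 ± 30.8 CPM in ΔHep and 1543 ± 36.3 CPM in F/F (SD, n = 3 each; log2 fold change -0.25, adjusted p = 0.261). The summed level of the list was 2078 to 2103 CPM in ΔHep and 2267 to 2347 CPM in F/F, without overlap. Of 11 tested genes of propeptide cleavage and cross-linking 0 passed with edgeR, and 8 were higher with an unadjusted p below 0.05. DESeq2 called 5 of the 13 in the table higher. Of all genes, 1.51% rose with edgeR, 14.1% were higher before adjustment and DESeq2 called 6.67% higher. The median of the list was 1.02. The lowest p were those of Adamts2, which cuts the amino-terminal propeptide (log2 fold change 1.46, SE 0.31, adjusted p = 0.058), and of Loxl1, a lysyl oxidase (2.03, SE 0.46, adjusted p = 0.065).

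Of 9 tested collagen receptors 2 rose, against 1.51% of all genes tested, with a median of 1.01. Before adjustment 6 were higher with p below 0.05, and DESeq2 called 4 higher, against 14.1% and 6.67% of all genes. Mrc2, which takes up collagen fragments into mesenchymal cells, had 5.18, 12.5 and 10.9 CPM in ΔHep, against 2.02, 2.31 and 2.19 CPM in F/F (log2 fold change 2.13, SE 0.32, adjusted p = 0.0329). Lair1, an inhibitory collagen receptor of leukocytes, had a fold change of 1.48 (log2, SE 0.26, adjusted p = 0.0391). Of 6 tested genes of collagen degradation 2 rose, against the same 1.51%, with a median of 0.93. Before adjustment 4 were higher, and DESeq2 called 4 of the 8 in the table higher, against the same 14.1% and 6.67%. The gelatinase Mmp2 had 6.43, 16.9 and 14.9 CPM in ΔHep against 3.11, 3.27 and 3.51 CPM in F/F. The inhibitor Timp2 had 33.4, 47.3 and 32.4 CPM in ΔHep against 11.7, 14.4 and 19.3 CPM in F/F. Of the 5 calls in these lists 0 held without ΔHep replicate 2, ΔHep replicate 3, F/F replicate 1 or F/F replicate 2, while the lists held 8 calls without ΔHep replicate 1 and 11 without F/F replicate 3.

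Of 20 stellate cell and fibroblast markers, none of them a collagen, 7 rose with edgeR and 14 with DESeq2, and 16 were higher before adjustment. The shares of all genes were 1.51% with edgeR, 6.67% with DESeq2 and 14.1% with an unadjusted edgeR p below 0.05. The markers had a median log2 fold change of 0.92 and counts of every marker in all 6 libraries. Their summed level was 893, 979 and 883 CPM in ΔHep replicates 1, 2 and 3, against 494, 564 and 680 CPM in F/F replicates 1, 2 and 3, and did not overlap. The largest parts of that sum were Dcn, Bgn, Reln and Ecm1. Their means were 237, 176, 139 and 101 CPM in ΔHep, against 143, 95.9, 87.9 and 107 CPM in F/F (n = 3 each). Divided by the sum over all 20 markers, collagens without Col18a1 gave ratios of 0.66, 0.87 and 1.10 in ΔHep and 0.62, 0.59 and 0.72 in F/F. These overlapped. The overlap was not particular to this list: ratios to the endothelial, cholangiocyte and macrophage lists below overlapped too. For endothelial markers they were 0.66, 1.05 and 1.01 in ΔHep and 0.66, 0.59 and 0.67 in F/F. Only the ratio to hepatocyte markers was separate, and higher in ΔHep. In bulk samples more cells of a type and more RNA per cell cannot be told apart. The part of stellate cells and fibroblasts in the collagen differences was not tested.

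**Figure D5:**
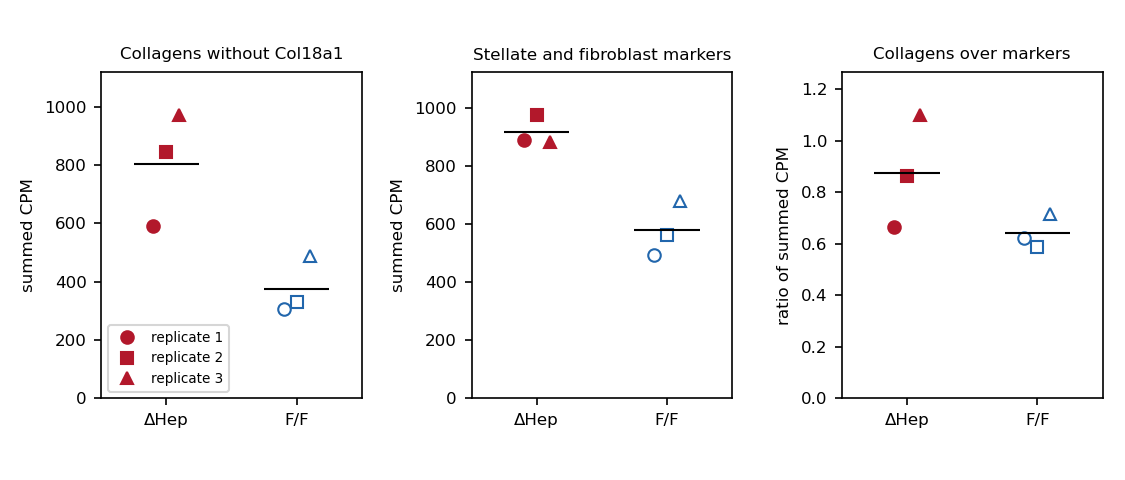
Summed CPM of collagens without Col18a1 (left), of 20 stellate cell and fibroblast markers (middle) and the ratio of these sums (right), with a point for each library and a line at each group's mean. The sums are separate between genotypes, and the ratio overlaps, at 0.66 to 1.10 in ΔHep and 0.59 to 0.72 in F/F.

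The other marker lists had the same background of all genes: 1.51% higher with edgeR, 6.67% with DESeq2 and 14.1% before adjustment. Of 19 tested endothelial markers 1 rose with edgeR, 7 passed with DESeq2 and 12 were higher with an unadjusted p below 0.05. Their median was 0.62, with sums of 807 to 960 CPM in ΔHep and 465 to 731 CPM in F/F. Of 8 tested cholangiocyte markers 4 rose with edgeR and 5 were higher with an unadjusted p below 0.05. DESeq2 called 6 of the 11 in the table higher. Of these 11, 3 had 0 counts in at least 1 library. The median was 1.57, with sums of 88.02 to 165 CPM in ΔHep and 50.1 to 107 CPM in F/F. Spp1 was the largest part of these sums, at 49.8, 111 and 57.5 CPM in ΔHep replicates 1, 2 and 3. In F/F replicates 1, 2 and 3 it had 28.4, 21.5 and 81.5 CPM. Of 15 macrophage markers 0 passed with edgeR, 6 passed with DESeq2 and 8 were higher with an unadjusted p below 0.05, with a median of 0.85 and sums of 838 to 1105 CPM in ΔHep and 368 to 949 CPM in F/F. Hepatocyte markers had 0 calls with edgeR, 1 lower with DESeq2, 3 lower with an unadjusted p below 0.05, and a median of -0.06 over 18 genes. Of all genes, 0.165% were lower with edgeR, 1.42% with DESeq2 and 6.97% before adjustment. F/F replicate 3, the F/F library with the most collagen, also had the highest sums of its group for the stellate, endothelial, cholangiocyte and macrophage lists. For the cholangiocyte list that position rested on Spp1. In ΔHep the order differed: replicate 1, with the least collagen, had the highest macrophage sum (1105 CPM, against 838 in replicate 2 and 914 in replicate 3) and an endothelial sum of 902 CPM, between 807 in replicate 2 and 960 in replicate 3. Without F/F replicate 3, 11 stellate, 12 endothelial, 6 cholangiocyte and 13 macrophage markers rose, and 1 hepatocyte marker fell, in a fit that called 1246 genes in all instead of 244. Without ΔHep replicate 2, ΔHep replicate 3, F/F replicate 1 or F/F replicate 2, 0 markers of these lists passed. Without ΔHep replicate 1, 7 stellate, 0 endothelial, 2 cholangiocyte and 0 macrophage markers rose. The part of these cell types in the collagen differences was not tested either.

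In the genome (GRCm38, GENCODE M21), the genes that rose lie on chromosomes 11 (Col1a1, 94936224 to 94953042), 6 (Col1a2, 4504814 to 4541544), 1 (Col5a2, 45374321 to 45503282, and Col6a3, 90765923 to 90843971), X (Col4a5, 141475385 to 141689234) and 10 (Col6a2, 76595762 to 76623630, and Col6a1, 76708792 to 76726168). Col3a1, at 45311538 to 45349706, is the neighbour of Col5a2 on chromosome 1. Exons of other annotated genes overlapped, 1 at a time, at most 6.1% of the exon length of any of the 36 genes. The counting is not stated to use strand, so reads in those overlaps cannot be assigned with certainty.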

How the data were processed

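RNA of primary hepatocytes was extracted with Trizol, and 1 μg entered standard Illumina libraries, per the labels' protocols. Reads were aligned to mm10 with HISAT2 2.0.4, per the submitters' processing notes; counting program, annotation, strand setting and gene filter: not given in the sources used here. The authors deposited raw read counts per gene symbol, used as they stand. Genes with low counts were removed with filterByExpr (minimum count 10, minimum total 15), which kept 14552 of 18260, and TMM scaling was applied to library sizes. ΔHep was tested against F/F with the quasi-likelihood F test of edgeR 4.0.16 in R 4.3.3 across all genes, two-sided, with Benjamini-Hochberg adjustment and a threshold of 0.05, no replicate block. Fold changes are ΔHep over F/F, and SE is the absolute fold change over the root of F. The script was tested on simulated data.

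The collagen genes and all lists were chosen with earlier results of these data known. The rule for named genes gave library values to members past the threshold and to the 2 most abundant of each class, and pathway genes past the threshold or else with the 2 smallest p. Library values of the other members, and P4hb, Spp1, Dcn, Bgn, Reln and Ecm1, were added after their values were seen. Levels per kb use the GENCODE M21 transcript with the longest coding sequence, and promoters come from RefSeq. Alternatives were other scalings, no filter, DESeq2 1.42.0, limma-voom 3.58.1, a replicate block and leaving out each library. Pairs of libraries within a group differed far beyond counting noise (chi-square per degree of freedom 17.9 to 106), so all 6 were kept. In total 0 columns of per-sample values were left out.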

Additional observations from a re-analysis of the deposited data

How the results depend on the processing

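The count of 7 collagen genes higher in ΔHep became 12 with library totals only, 18 with DESeq2 and 2 with limma-voom, and 0 to 14 when 1 library was left out. Of collagen genes lower in ΔHep there were 0 in each other setting and 0 to 1 when a library was left out. All genes called were 644 with library totals only, 1304 with DESeq2, 88 with limma-voom and 1 to 1246 with 1 library left out, against 244. The 5 calls in the pathway lists became 10, 16 and 2 with library totals only, DESeq2 and limma-voom, 9 with the replicate block, and 0 to 11 with 1 library left out; these settings were chosen for the pathway and marker lists after seeing the data. Library totals only moved the median log2 fold change of all genes by 0.09. The FACIT median of 0.69 lay between 0.47 and 0.97 with 1 library left out, and the medians of the fibrillar, basement membrane and other classes moved by less than the spread between replicates in every setting. Summed collagen fell to 804 CPM in ΔHep and 375 CPM in F/F with Col18a1 left out, a choice made after seeing the data. Signs of fold changes of tested collagens turned only for Col13a1 (-0.018 without ΔHep replicate 1, up to 0.52 with another library left out) and Col20a1 (-0.0035 without ΔHep replicate 1, -0.008 without F/F replicate 3, up to 0.24 with another left out), neither of them called. The cause of these moves was not tested. Same-numbered libraries did not deviate together (correlations 0.11, -0.07 and -0.01 for numbers 1, 2 and 3), so the numbers were not taken to pair samples; with the replicate block 10 collagen genes were higher. Genes under about 1 CPM rest on few reads, so their fold changes are the least exact.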
